A study of Mus musculus with 25 samples.

Results

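The potassium channel genes of pituitaries with *Rb* knocked down were taken as every symbol beginning with *Kcn* in either of the deposited gene tables of this series. This rule used names alone and found 79 genes of 15768. The table of the long-term experiment held 78 of them among 15315 genes, and the table of the short-term experiment held 61 among 14007. Both tables shared 60 members, 18 were listed in the long-term table alone and 1, *Kcnq5*, in the short-term table alone. By family the members were 29 voltage-gated alpha subunits, 6 silent voltage-gated subunits, 11 auxiliary subunits of voltage-gated channels, 12 calcium- and sodium-activated channel subunits, 9 inward rectifiers, 9 tandem-pore channels and 3 RNA genes.

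RNA was sequenced from whole pituitaries, described in the paper as pituitary tumors, of 25 sh*Rb* mice. All of them carried an shRNA against *Rb* linked to GFP at the *Col1a1* locus, made from 1 embryonic stem cell clone with 1 shRNA, and the activator rtTA expressed from the *Rosa26* promoter, so that doxycycline (dox) in the drinking water lowered *Rb* in many tissues and not in the pituitary alone. The long-term groups were 6w+dox (6 weeks on dox, 3 females), 12w+dox (12 weeks on dox, 2 females and 2 males) and 12w-res (6 weeks on dox followed by 6 weeks without it, 3 females and 2 males). The short-term groups were 16w+dox (16 weeks on dox, 3 males), 1d-dox (1 day after dox was stopped, 4 females), 3d-dox (3 days, 3 males) and 5d-dox (5 days, 3 females). Mice that never received dox were not analysed here, and the age at the start of dox is not given in the labels. Comparisons of 16w+dox males with females taken 1 or 5 days later mix time with sex, and the effects of these cannot be told apart.

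The long-term libraries held 19066053 to 28968476 reads on genes and were made by poly(A) enrichment. The short-term libraries held 9573101 to 13036900 and were made by rRNA depletion, so no test was run across the tables. *Rb1* averaged 3.16, 3.21 and 18.2 FPM in the 6w+dox, 12w+dox and 12w-res mice, and its means in the short-term groups lay between 4.19 and 5.12 FPM. FPM is the unit of the deposited tables, sequenced fragments per gene scaled by depth with the size factors of DESeq2. *Pomc*, the hormone precursor of melanotrophs and corticotrophs, took up 12.9% to 43.2% of the long-term reads and 4.96% to 17.9% of the short-term reads.

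Potassium channels let potassium leave the cell and so set the resting potential and end each action potential. In the endocrine cells of the pituitary this controls calcium entry and hormone release. Voltage-gated channels open on depolarisation, calcium-activated channels couple to calcium entry, inward rectifiers and tandem-pore channels hold the membrane near rest, and auxiliary and silent subunits change how alpha subunits reach the membrane and gate. Members named below are those called in at least 1 comparison, the 5 with the highest level per length in each table and a set list of pituitary channels. *Kcna2*, *Kcna6*, *Kcnc4*, *Kcng4*, *Kcnh5* and *Kcnk5* fall outside that rule and were chosen after their values or promoters were seen, as were the partners and pumps named as called.

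RB acts through E2F transcription factors, which bind promoters of cell cycle genes, so member promoters were searched for the E2F-type motif in the forms TTTGGCGC, TTTGCCGC, TTTCGCGC and TTTCCCGC on both strands. RefSeq promoter windows of 300 bases (250 before and 50 after the start, build GRCm38.p6) existed for 58 of the 79 members. The motif was found in 4 members, 6.90%, against 2.61% of 27025 genes with a window and 4.45% of the genes of the long-term table. Of these 4, *Kcna3* was called in a comparison below, while *Kcna6*, *Kcnh5* and *Kcnip3* were not. The *Kcna3* stretch is chr3:107035997-107036124 (plus strand), the *Kcna6* stretch chr6:126740736-126740863 (minus strand) and the *Kcnh5* stretch chr12:75177479-75177582 (minus strand). All lie upstream of the start used for their window and are printed 5′ to 3′ on the strand of the gene with the motif in capitals. The start used for *Kcna6* lies inside the annotated gene, whose 5′ end is at chr6:126740834, so part of its stretch lies within the gene. The stretches show a called and 2 uncalled members that hold a form of this motif, the same form in *Kcna3* and *Kcna6* and another in *Kcnh5*. The *Kcnip3* match lay after the start and is not printed.
Kcna3: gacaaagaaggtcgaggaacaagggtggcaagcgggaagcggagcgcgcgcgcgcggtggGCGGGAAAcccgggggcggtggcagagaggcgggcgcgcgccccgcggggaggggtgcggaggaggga
Kcna6: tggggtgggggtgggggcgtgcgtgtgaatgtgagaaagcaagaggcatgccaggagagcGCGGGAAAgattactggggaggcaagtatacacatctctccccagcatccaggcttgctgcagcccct
Kcnh5: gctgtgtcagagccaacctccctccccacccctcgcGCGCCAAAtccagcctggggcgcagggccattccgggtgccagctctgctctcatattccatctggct
The first base of the motif lay 105 bases before the start in *Kcna3*, 129 in *Kcna6* and 214 in *Kcnh5*. A match of letters is a description and does not show binding.

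Potassium channel transcripts were of low abundance. Over the 12 long-term mice the members' mean levels ran from 0.220 to 129.99 FPM with a median of 4.01, against 17.7 FPM over all genes of that table. Of the 78 members 23 averaged under 1 FPM, 29 between 1 and 10 and 26 at least 10. In the short-term table the median was 2.5 FPM against 5.95 over all genes, and 18, 26 and 17 of the 61 members fell in those ranges.

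Per kilobase of the longest transcript, *Kcnip3*, a calcium-binding auxiliary subunit of A-type channels, stood highest in the long-term mice at 41.6 FPM per kb. *Kcnh2*, the ERG channel alpha subunit, followed at 30.8 and the tandem-pore channel *Kcnk1* at 26.8 FPM per kb. The halothane-inhibited channel gene *Kcnk12* (11.6 FPM per kb) and the acid-sensitive background channel gene *Kcnk3* (10.1 FPM per kb) completed the 5 highest, which held 45.8% of the level per kb summed over the members. The ranges over mice of all neighbours in this order overlapped. In the short-term mice *Kcnh2* (13.7), the G-protein-gated rectifier *Kcnj6* (12.0), *Kcnip3* (9.81), the BK channel beta subunit *Kcnmb4* (9.07) and *Kcnk1* (7.43 FPM per kb) were highest, with 48.0% of the sum.

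**Figure D1:**
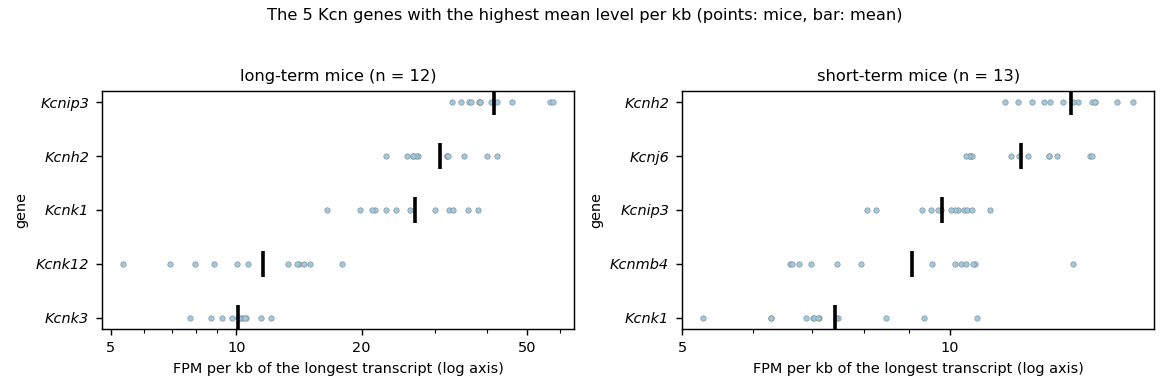
Level per kb of the longest transcript (FPM per kb, log axis) of the 5 highest members in the long-term and the short-term mice; each point is a mouse and each bar the mean over mice. *Kcnip3* at 41.6 and *Kcnh2* at 30.8 FPM per kb lead the long-term mice, and *Kcnh2* at 13.7 leads the short-term mice.

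Among the genes that stood highest, 12w+dox and 12w-res differed in several without reaching a doubling. *Kcnk1*, a weakly inward rectifying tandem-pore channel, read 51.2, 58.3 and 48.1 FPM in the 6w+dox mice, 44.2, 53.9, 47.3 and 36.9 in the 12w+dox mice and 72.6, 67.1, 73.9, 85.2 and 80.2 in the 12w-res mice. Every 12w-res mouse was above all other mice, with a log2 fold change of 0.74 against 12w+dox (adjusted p = 0.00030). *Kcnk12* gave 0.84 (adjusted p = 0.0073) in the same comparison, also without overlap. *Kcnh2* averaged 120.8, 157.8 and 113.3 FPM in the 3 groups and gave -0.48 (adjusted p = 0.0059) in 12w-res against 12w+dox, with 1 of the 5 12w-res mice inside the 12w+dox range. None of these was called, since calls were limited to changes of more than 1 on the log2 scale in either direction whose adjusted p lay below 0.05. *Kcnip3* averaged 134.1, 102.4 and 110.3 FPM and *Kcnk3* 36.3, 41.6 and 37.0 FPM, with overlapping groups.

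The change from 6 to 12 weeks on dox was compared first. By limma 8 members rose and 5 fell in 12w+dox against 6w+dox, where 3.15% of all 15315 genes were called higher and 4.04% lower. Of the 78 members 16.7% were called, beside 7.2% of all genes. The median log2 fold change of the members was -0.15, beside -0.0063 over all genes. Groups did not overlap in 25 members (32.1%) and in 25.2% of all genes. At an unadjusted p under 0.05, 15 of the 78 members were higher and 18 lower, beside 2624 and 2961 of all 15315 genes. edgeR called 6 members higher and 6 lower, and DESeq2 called 7 higher and 7 lower. Counts over all genes by these tools are not given, here or below, so their member counts have no background beside them.

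Dox removal was compared next, as 12w-res against 12w+dox. By limma 8 members rose and 6 fell, where 6.24% of all genes were called higher and 5.04% lower. The called share was 17.9% of the members beside 11.3% of all genes, and the median log2 fold change 0.02 beside -0.0040 over all genes. Groups did not overlap in 26 members (33.3%) and in 34.5% of all genes. At an unadjusted p under 0.05 limma gave 19 members higher and 16 lower, beside 3724 and 3525 of all 15315 genes. edgeR called 12 members higher and 5 lower, and DESeq2 called 12 higher and 6 lower. *Pomc* took up 39.1% to 43.2% of the reads in 12w-res and 12.9% to 23.0% at 12w+dox, and scaling by total reads moved the median of all genes to -0.61 and that of the members to -0.43, and left 1 member called higher and 18 lower.

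In 12w-res against 6w+dox, which shares its mice with the other comparisons, 6 members rose and 4 fell, where 5.81% of all genes were called higher and 5.82% lower. The called share was 12.8% of the members beside 11.6% of all genes, a share near the background. At an unadjusted p under 0.05 limma gave 20 members higher and 16 lower, beside 3345 and 3395 of all 15315 genes. edgeR and DESeq2 each called 8 higher and 4 lower. Groups did not overlap in 19 members (24.4%) and in 32.7% of all genes. Scaling by total reads moved the all-gene median to -0.33 here, with 4 members higher and 11 lower, and to 0.29 in 12w+dox against 6w+dox, with 12 higher and 2 lower. Over the 3 comparisons 29 different members were called.

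Markers of other cell types fell in 12w+dox against 6w+dox as well. Both somatotroph markers (*Gh*, *Ghrhr*) fell, with sums of 45903 to 80171 FPM in the 6w+dox group and 932.7 to 7500 in the 12w+dox group, and *Prl* fell from 9172 to 11704 FPM to 213.5 to 4940. Both thyrotroph markers fell, with sums of 14.1 to 67.8 FPM and 0.991 to 12.0 FPM. Of the 5 pituicyte and neural lobe markers 3 fell (44.2 to 120.9 FPM and 6.45 to 13.3 FPM), and of the 4 fibroblast markers 3 (80.6 to 132.7 FPM and 28.5 to 116.6 FPM). Somatotroph markers also fell in 12w-res against 6w+dox, 2 of 2, while 4 of the 5 pericyte and smooth muscle markers rose. The part of these cells in the channel values was not tested, and in whole glands fewer cells of a type and less RNA per cell cannot be told apart.

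The share of males differed between the groups in each of these comparisons. With sex as a covariate 7 of the 13 calls of 12w+dox against 6w+dox were lost (*Kcnc1*, *Kcnd3*, *Kcng1*, *Kcnh7*, *Kcnj4*, *Kcnmb4os2* and *Kcnt2*), and in females only 9 were lost, those 7 and *Kcnk2* among them. No member call of 12w-res against 12w+dox or of 12w-res against 6w+dox was lost with sex as a covariate. In females only, a fit with fewer mice, 12w-res against 6w+dox lost *Kcnh4*. That fit also lost 7 of the 14 calls of 12w-res against 12w+dox, among them *Kcnab3*, *Kcnh7*, *Kcnj10*, *Kcnj2*, *Kcnq3* and *Kcnt1*. A test of whether this change differed between the sexes passed in 0 of 78 members by limma, with a smallest adjusted p of 0.714 and 6 members at an unadjusted p under 0.05.

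**Figure D2:**
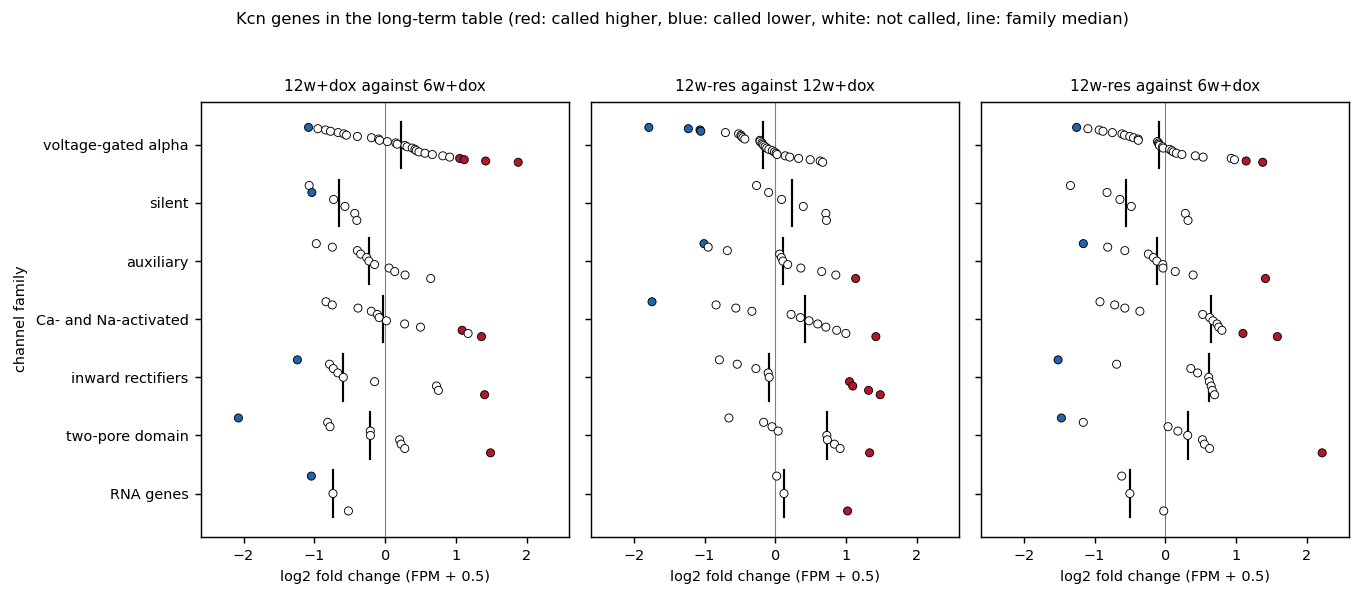
Log2 fold change (FPM + 0.5) of the 78 members of the long-term table by channel family in the 3 comparisons; each point is a gene, red points were called higher, blue points called lower, white points not called, and lines are family medians. In 12w-res against 12w+dox all 4 called voltage-gated alpha subunits lie below 0 and all 4 called inward rectifiers above it. The medians of these families there are -0.17 and -0.086.

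Voltage-gated alpha subunits form the pore that opens on depolarisation. In 12w+dox against 6w+dox 4 of 28 rose (*Kcna3*, *Kcnh7* and *Kcnc1* among them) and 1 fell (*Kcnd3*), with a family median of 0.22. In 12w-res against 12w+dox 0 of 28 rose and 4 fell (*Kcna3*, *Kcnh7* and *Kcnq3* among them), and the median was -0.17 with 8 genes above 0 and 20 below. At an unadjusted p under 0.05 limma gave 1 higher and 9 lower in that comparison, and edgeR and DESeq2 each called 0 higher and 4 lower. Family counts at this p, here and below, stand beside the counts over all genes given above for each comparison. In 12w-res against 6w+dox 2 rose (*Kcnq1* among them) and 1 fell (*Kcnh4*).

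*Kcna3*, a delayed rectifier best known from lymphocytes, is the called member with the E2F-type motif printed above. It read 0.349, 1.25 and 1.66 FPM in the 6w+dox mice, 4.92, 4.46, 4.22 and 6.28 in the 12w+dox mice and 1.98, 3.06, 0.728, 0.295 and 0.608 in the 12w-res mice. All 4 12w+dox mice lay above every other mouse, and the 12w-res mice spanned the 6w+dox range. The 12w-res mice at 1.98 and 3.06 FPM were the males, and the 6w+dox mice were all female. It rose 3.68-fold in 12w+dox against 6w+dox (log2 1.88 ± 0.45 SE, adjusted p = 0.011) and fell 3.45-fold in 12w-res (log2 -1.79 ± 0.40 SE, adjusted p = 0.0031). The rise was lost without 6w+dox replicate 1 (log2 1.48, adjusted p = 0.054), while the fall was kept under every alternative in which the gene was tested. In *Kcna3* that fall was log2 -2.34 in females and -0.93 in males (limma interaction unadjusted p = 0.0087, adjusted p = 0.99). In the short-term mice its group means were 2.58, 2.47, 2.42 and 3.04 FPM at 16w+dox and 1, 3 and 5 days. The macrophage and leukocyte list (*Ptprc*, *Cd68*, *Csf1r*, *C1qa*, *C1qb*) summed to 75.1 to 106.5 FPM in the 6w+dox mice, 76.2 to 102.1 in the 12w+dox mice and 119.7 to 172.4 in the 12w-res mice. The part of these cells in the *Kcna3* values was not tested.

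*Kcnc1*, a fast channel of high-frequency firing, read 44.1, 38.9 and 38.3 FPM at 6w+dox, 74.9, 81.4, 70.4 and 117 at 12w+dox and 56.9, 64.4, 51.0, 65.6 and 56.5 in 12w-res. The 3 groups did not overlap, and 12w-res lay between the others. It rose 2.07-fold in 12w+dox against 6w+dox (log2 1.05, adjusted p = 0.00078), a call lost without 12w+dox replicate 4 (log2 0.89), and gave -0.52 in 12w-res against 12w+dox (adjusted p = 0.0092), which was not called.

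*Kcnq1*, whose channel pairs with KCNE subunits in heart and epithelia, read 3.90, 3.56 and 3.06 FPM at 6w+dox, 5.76, 8.07, 7.42 and 5.19 at 12w+dox and 10.2, 8.61, 6.55, 7.73 and 8.84 in 12w-res. All mice of the later groups exceeded all 6w+dox mice. Only 12w-res passed the call against 6w+dox (2.21-fold, log2 1.14, adjusted p = 0.00048), while 12w+dox gave 0.81 (adjusted p = 0.012). The strand of counting is not given in the sources used here, so reads of *Kcnq1* and its antisense RNA *Kcnq1ot1* cannot be told apart. *Kcnq1ot1* ran from 2.496 to 48 FPM over the long-term mice and was not called.

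*Kcnh7*, an ERG-type channel, read 0.349, 0.356 and 1.45 FPM at 6w+dox, 2.65, 1.66, 1.29 and 2.37 at 12w+dox and 0.520, 0.475, 1.14, 0.531 and 0.221 in 12w-res. The 12w-res mice all lay below the 12w+dox mice, and 6w+dox replicate 3 lay inside the 12w+dox range. It fell 2.34-fold in 12w-res (log2 -1.23, adjusted p = 0.0056) after a rise of 2.17-fold at 12w+dox (log2 1.12, adjusted p = 0.032). The rise was lost without any 1 of 12w+dox replicates 1, 2 and 4 and 6w+dox replicates 1 and 2 (adjusted p 0.051 to 0.14).

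*Kcnq3*, a subunit of the M-current channel, had 7 reads in all 5 12w-res mice together and 107 in the 4 12w+dox mice, a ratio of 11.1 (exact 95% counting interval 5.20 to 28.2) that covers counting error only. Its call (adjusted p = 0.022) was lost without 12w+dox replicate 2, which read 1.66 FPM where the other 12w+dox mice read 0.174 to 0.670 (log2 -0.76, adjusted p = 0.084). *Kcnd3*, an A-type channel, fell at 12w+dox against 6w+dox (log2 -1.08, adjusted p = 0.045) with 12w+dox replicate 1 at 11.5 FPM inside the 6w+dox range. That call was lost without any 1 mouse other than 12w+dox replicate 1 (adjusted p 0.056 to 0.11) and by edgeR and DESeq2. *Kcnh4*, an ELK-type channel, fell in 12w-res against 6w+dox (log2 -1.25, adjusted p = 0.014), a call lost without 6w+dox replicate 2 (adjusted p = 0.053). The A-type subunit *Kcnd2*, not called, read 22.3 to 23.7 FPM at 6w+dox, 11.2 to 14.9 at 12w+dox and 11.9 to 15.1 in 12w-res. Both later groups lay below 6w+dox, at log2 -0.77 (adjusted p = 0.0025) and -0.75 (adjusted p = 0.00086).

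Silent subunits do not open on their own and modify other alpha subunits. All 6 had a log2 fold change below 0 in 12w+dox against 6w+dox, and 1 of them, *Kcng1*, fell. It read 0.175, 0.713 and 1.70 FPM at 6w+dox, 0.140, 0.117, 0.0924 and 0.0279 at 12w+dox and 0.156, 0.475, 0.137, 0.295 and 0.387 in 12w-res. With 12 reads at 12w+dox and 60 at 6w+dox the ratio was 10.3 (exact 95% counting interval 5.48 to 21.0), and most of the 6w+dox level lay in 1 mouse. The call (adjusted p = 0.036) was lost on leaving out any mouse but 6w+dox replicate 1 (adjusted p 0.050 to 0.12). None of the 6 was called by limma in the other comparisons. At an unadjusted p under 0.05 limma gave 2 higher and 0 lower in 12w-res against 12w+dox, where edgeR and DESeq2 each called 1 higher, and 0 higher and 2 lower in 12w-res against 6w+dox, where both called 0.

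Among the 11 auxiliary subunits limma called none in 12w+dox against 6w+dox, with 0 higher and 2 lower at an unadjusted p under 0.05, and edgeR and DESeq2 each called 1 lower. In 12w-res against 12w+dox *Kcne3* rose and *Kcnab3* fell, and the same held against 6w+dox. *Kcne3*, a single-pass subunit that keeps *Kcnq1* channels open in epithelia, read 0.291, 0.624 and 0.248 FPM at 6w+dox, 0.837, 0.379, 0.462 and 0.614 at 12w+dox and 1.09, 1.90, 2.28, 2.48 and 1.66 in 12w-res. The 5 12w-res mice were above all others, with a 2.20-fold rise against 12w+dox (log2 1.14 ± 0.23 SE, adjusted p = 0.0017) and 2.67-fold against 6w+dox (log2 1.41 ± 0.25 SE, adjusted p = 0.00075).

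*Kcnab3*, a cytoplasmic beta subunit of *Kcna* channels, read 23.5, 18.5 and 19.3 FPM at 6w+dox, 14.9, 20.1, 20.1 and 18.6 at 12w+dox and 5.67, 11.7, 6.74, 10.7 and 11.2 in 12w-res. Every 12w-res mouse was below every other mouse. It fell 2.23-fold against 6w+dox (log2 -1.16, adjusted p = 0.0013) and 2.01-fold against 12w+dox (log2 -1.01, adjusted p = 0.0017), where the log2 change went above -1 without 12w+dox replicate 2, 3 or 4 or 12w-res replicate 1 or 3 (-0.999 to -0.86). *Kcnab2*, a beta subunit of the same family, averaged 21.3, 23.7 and 11.9 FPM in the 3 groups and gave -0.95 in 12w-res against 12w+dox (adjusted p = 0.00033) and -0.81 against 6w+dox (adjusted p = 0.0021), without overlap and short of a call.

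**Figure D3:**
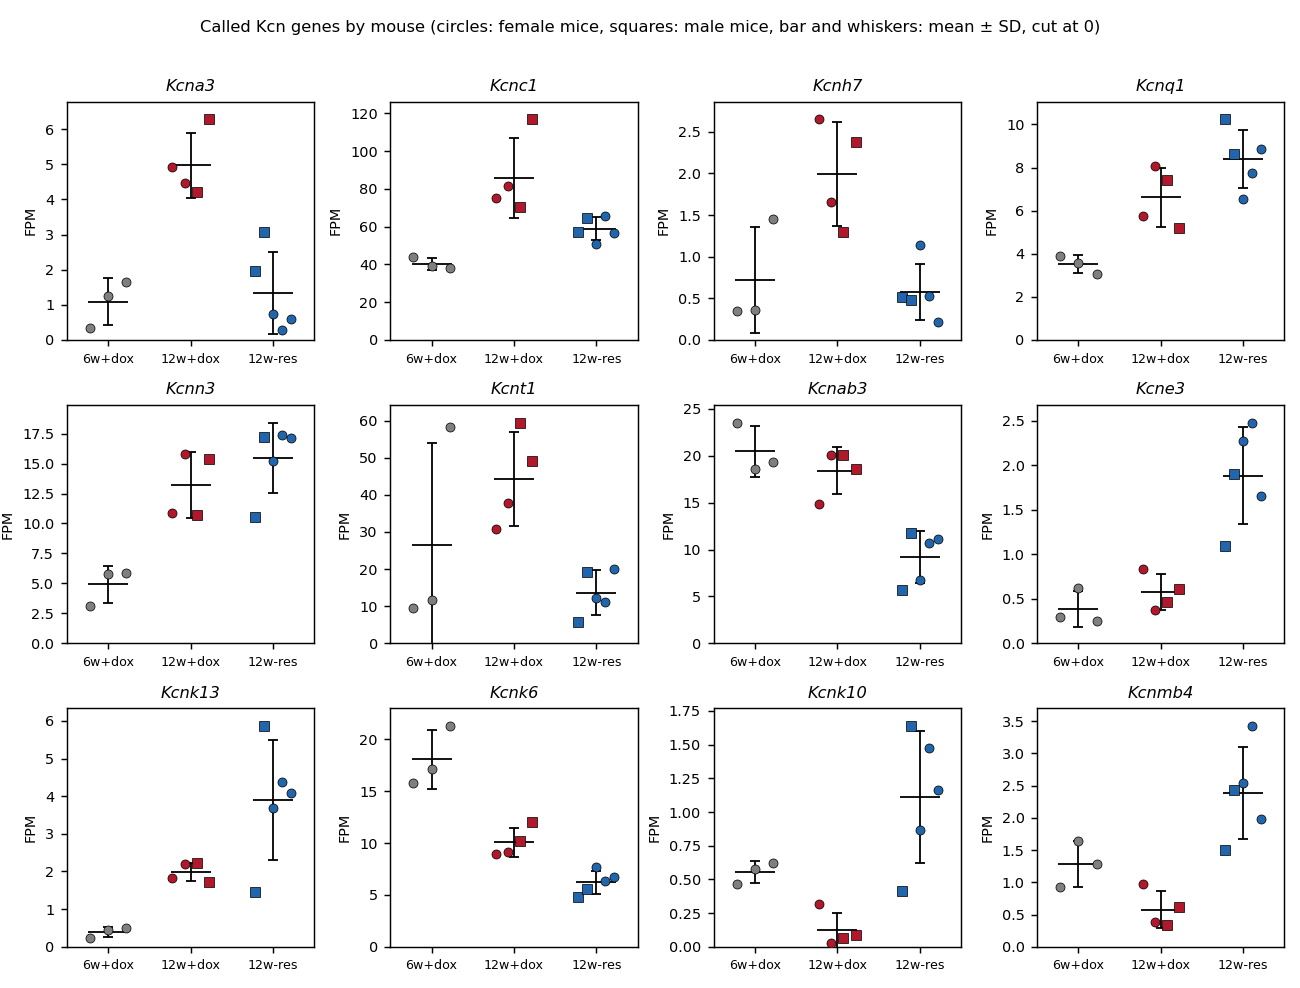
FPM in each long-term mouse for 12 called members; circles are females, squares males, and bars show mean ± SD, with whiskers cut at 0. *Kcna3* is highest in the 4 12w+dox mice, *Kcnn3* is higher in both later groups than at 6w+dox, and *Kcne3* and *Kcnmb4* have their highest means in 12w-res.

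Calcium-activated channels link hormone-cell calcium signals to repolarisation, and sodium-activated channels do so for sodium. In 12w+dox against 6w+dox 2 of 12 rose (*Kcnn3*, *Kcnt2*) and none fell, with 2 lower at an unadjusted p under 0.05 by limma, 0 called lower by edgeR and 1 by DESeq2. *Kcnmb4* rose and *Kcnt1* fell in 12w-res against 12w+dox. Against 6w+dox *Kcnn3* and *Kcnmb3* rose in 12w-res, and 0 fell, with 2 lower at an unadjusted p under 0.05 by limma and 0 called lower by edgeR and by DESeq2.

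*Kcnn3*, a small-conductance calcium-activated channel, read 3.14, 5.79 and 5.84 FPM at 6w+dox, 10.9, 15.8, 10.7 and 15.4 at 12w+dox and 10.503, 17.2, 15.2, 17.4 and 17.1 in 12w-res. The 9 mice of the later groups were all above the 3 6w+dox mice, and the later groups overlapped. The rise was 2.57-fold at 12w+dox (log2 1.36 ± 0.24 SE, adjusted p = 0.0020) and 2.99-fold in 12w-res (log2 1.58 ± 0.23 SE, adjusted p = 0.00016), and both calls were kept in every fit. Its relative *Kcnn1* averaged 4.90, 4.41 and 8.65 FPM and gave 0.87 in 12w-res against 12w+dox (adjusted p = 0.0056), not called. *Kcnn2* averaged 6.51, 3.34 and 4.78 FPM and was not called either.

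*Kcnmb4*, the BK beta subunit of neurons, read 0.932, 1.65 and 1.28 FPM at 6w+dox, 0.977, 0.379, 0.339 and 0.614 at 12w+dox and 1.51, 2.43, 2.55, 3.42 and 1.99 in 12w-res. The 12w-res mice were all above the 12w+dox mice and overlapped 6w+dox. It rose 2.68-fold in 12w-res against 12w+dox (log2 1.42 ± 0.24 SE, adjusted p = 0.00047). The gene named for its opposite strand, *Kcnmb4os2*, overlaps *Kcnmb4* in the annotation, and without a known strand of counting reads in the overlap cannot be told apart, so the values of this pair are uncertain. *Kcnmb4os2* read 8.09, 8.64 and 7.95 FPM at 6w+dox, 4.08, 3.73, 3.42 and 3.71 at 12w+dox and 7.59, 7.08, 7.28, 10.2 and 8.68 in 12w-res. It fell 2.06-fold at 12w+dox (log2 -1.04, adjusted p = 0.0012) and rose 2.03-fold in 12w-res against 12w+dox (log2 1.02, adjusted p = 0.00013), with no overlap in either. The rise stood at log2 0.94 to 1.00 without 12w+dox replicate 3 or 12w-res replicate 4 or 5. In the short-term libraries the order was the other way round, with group means of 11.6 to 18.4 FPM for *Kcnmb4* and 0.632 to 0.943 for *Kcnmb4os2*. Library preparation and experiment cannot be told apart in that difference.

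The BK pore gene *Kcnma1* was not called. It read 17.3, 20.4 and 32.9 FPM at 6w+dox, 22.3, 24.2, 19.99 and 25.7 at 12w+dox and 29.7, 43.7, 35.9, 39.9 and 42.4 in 12w-res. All 5 12w-res mice lay above the 12w+dox mice, with a log2 change of 0.71 (adjusted p = 0.0050). The beta subunit *Kcnmb3* had 76 reads in the 5 12w-res mice and 5 in the 3 6w+dox mice, a ratio of 10.2 (exact 95% counting interval 4.18 to 32.3). That call (adjusted p = 0.023) was lost without 12w-res replicate 2 (adjusted p = 0.052) or 6w+dox replicate 1 (adjusted p = 0.074).

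*Kcnt1*, a sodium-activated channel, read 9.55, 11.7 and 58.2 FPM at 6w+dox, 30.7, 37.8, 59.4 and 49.2 at 12w+dox and 5.72, 19.3, 12.2, 11.1 and 19.9 in 12w-res. All 12w+dox mice exceeded all 12w-res mice, and 6w+dox replicate 3 stood among the 12w+dox mice. It fell 3.34-fold in 12w-res against 12w+dox (log2 -1.74 ± 0.46 SE, adjusted p = 0.0084). *Kcnt2*, its relative, read 0.699, 0.534 and 2.15 FPM at 6w+dox, 2.79, 2.24, 3.05 and 2.6 at 12w+dox and 2.24, 1.32, 2.28, 0.945 and 1.77 in 12w-res. The 12w+dox mice were just above 6w+dox replicate 3, and the rise of 2.12-fold (log2 1.09, adjusted p = 0.027) was lost by edgeR and without 12w+dox replicate 3 or 4 or 6w+dox replicate 1 or 2 (adjusted p 0.054 to 0.14).

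Inward rectifiers carry current near rest, and some form channels that are gated by ATP or by G proteins. In 12w-res against 12w+dox 4 of 9 rose (*Kcnj8*, *Kcnj15*, *Kcnj10*, *Kcnj2*) and none fell, with 1 lower at an unadjusted p under 0.05 by limma and 0 called lower by edgeR and by DESeq2. The family median there was -0.086, with 4 genes above 0 and 5 below. Under scaling by total reads the 4 called genes stayed above 0 but none was called (log2 0.46 to 0.99). In 12w+dox against 6w+dox *Kcnj9* rose and *Kcnj4* fell, and in 12w-res against 6w+dox *Kcnj4* fell.

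*Kcnj8*, the pore of the vascular ATP-sensitive channel, read 2.91, 5.12 and 5.84 FPM at 6w+dox, 3.80, 1.60, 2.22 and 2.26 at 12w+dox and 8.995, 7.61, 6.55, 8.56 and 6.24 in 12w-res. The 12w-res mice were above every other mouse. It rose 2.79-fold against 12w+dox (log2 1.48 ± 0.23 SE, adjusted p = 0.00028), and scaling by total reads put this at 0.90 (adjusted p = 0.012). *Abcc9*, the sulfonylurea receptor that partners *Kcnj8*, read 10.3, 14.7 and 10.8 FPM at 6w+dox, 11.1, 5.71, 3.23 and 7.01 at 12w+dox and 17.8, 19.1, 19.2, 15.4 and 12.4 in 12w-res. It rose in the same comparison (log2 1.35, adjusted p = 0.0012), with no overlap.

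The other ATP-sensitive pair, known from the pancreatic beta cell, went otherwise. *Abcc8*, its receptor, read 3.90, 5.43 and 8.69 FPM at 6w+dox, 3.94, 5.33, 6.71 and 6.20 at 12w+dox and 2.13, 1.58, 1.09, 1.12 and 1.33 in 12w-res. All 12w-res mice were below all others, at log2 -1.63 against 12w+dox (adjusted p = 0.00015) and -1.70 against 6w+dox (adjusted p = 0.00025), calls kept in every fit. Its pore *Kcnj11* averaged 3.49, 3.04 and 2.12 FPM with overlapping groups and was not called.

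*Kcnj2*, a strong rectifier of muscle and endothelium, read 2.39, 5.66 and 6.50 FPM at 6w+dox, 3.59, 2.19, 2.56 and 3.07 at 12w+dox and 6.34, 5.86, 6.83, 7.26 and 5.58 in 12w-res. The 12w-res mice lay above all 12w+dox mice and overlapped 6w+dox. It rose 2.07-fold (log2 1.05, adjusted p = 0.0036), which was log2 0.95 without 12w+dox replicate 2. *Kcnj15* read 0.582, 0.624 and 0.787 FPM at 6w+dox, 0.279, 0.146, 0.277 and 0.223 at 12w+dox and 0.312, 0.687, 2.46, 2.36 and 1.93 in 12w-res. Its 3 high mice were the females of 12w-res, and the rise was 2.49-fold (log2 1.32, adjusted p = 0.0078). *Kcnj10*, known from glia, ran from 1.02 to 3.66 FPM at 12w+dox and from 3.59 to 6.08 in 12w-res, where 12w+dox replicate 1 overlapped. Its rise of 2.13-fold (log2 1.09, adjusted p = 0.010) fell to 0.89 to 0.99 without 12w+dox replicate 2 or 3 or 12w-res replicate 4.

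Markers of several cell types, not of vessel cells alone, rose in the same comparison as these rectifiers. All 5 listed markers of pericytes and smooth muscle (*Rgs5*, *Pdgfrb*, *Acta2*, *Myh11*, *Cspg4*) rose in 12w-res against 12w+dox, and their sum ran from 108.9 to 258.7 FPM at 12w+dox and from 439.8 to 544.7 in 12w-res. Of the 5 endothelial markers 4 rose, with sums of 53.2 to 115.1 and 167.2 to 243.4 FPM. In 12w+dox against 6w+dox 2 of these 5 had fallen, and in 12w-res against 6w+dox 0 were called. All 4 fibroblast markers rose, with sums of 28.5 to 116.6 and 188.9 to 456.8 FPM. The lactotroph gene *Prl* rose by log2 4.06 (limma adjusted p = 0.00061), from 213.5 to 4940 FPM at 12w+dox to 5659 to 11697 in 12w-res. Of the 2 somatotroph markers 1 rose, and no thyrotroph or gonadotroph marker was called. No macrophage and leukocyte marker reached a call either, but all 5 were higher at an unadjusted p under 0.05 by limma (median log2 0.76). Over all 15315 genes 3724 were higher at that p. Of the 3 stem and folliculostellate markers 1 rose, of the 5 melanotroph and corticotroph markers 1 rose, and of the 3 neuron markers 1 fell. Of the 5 pituicyte and neural lobe markers only 1 was called, the astrocyte and pituicyte gene *Aqp4*, which rose (log2 1.13, adjusted p = 0.023). Of these 5 markers 4 had a log2 fold change above 0 and 1 below. The part of these cells in the rise of *Kcnj8*, *Abcc9*, *Kcnj2* and *Kcnj10* was not tested.

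The G-protein-gated rectifiers answer to dopamine and somatostatin receptors in hormone cells. *Kcnj9* read 3.20, 4.10 and 6.58 FPM at 6w+dox, 11.2, 14.6, 13.7 and 11.1 at 12w+dox and 7.75, 7.45, 6.92, 6.14 and 7.13 in 12w-res. The 12w+dox mice were above all others. It rose 2.64-fold against 6w+dox (log2 1.40 ± 0.21 SE, adjusted p = 0.00078), a call kept in every fit, and gave -0.79 in 12w-res against 12w+dox (adjusted p = 0.0042). *Kcnj3* averaged 34.1, 58.0 and 54.6 FPM and *Kcnj6* 16.7, 28.0 and 25.8 FPM. Both later groups lay above 6w+dox in both genes, at log2 0.75 (adjusted p = 0.0016) for *Kcnj3* and 0.72 (adjusted p = 0.0055) for *Kcnj6* in 12w+dox, which fell short of a call.

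*Kcnj4* read 0.990, 1.07 and 4.93 FPM at 6w+dox, 0.628, 0.466, 0.616 and 0.279 at 12w+dox and 0.364, 0.423, 0.137, 0.0590 and 0.774 in 12w-res. The 6w+dox mice were above all others, and 6w+dox replicate 3 far above. Without that mouse the fall at 12w+dox went from log2 -1.24 (adjusted p = 0.043) to -0.63 (adjusted p = 0.15) and that in 12w-res from -1.52 (adjusted p = 0.0087) to -0.91 (adjusted p = 0.035). The call at 12w+dox was also lost without any 1 of the 12w+dox mice (adjusted p 0.054 to 0.103).

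**Figure D4:**
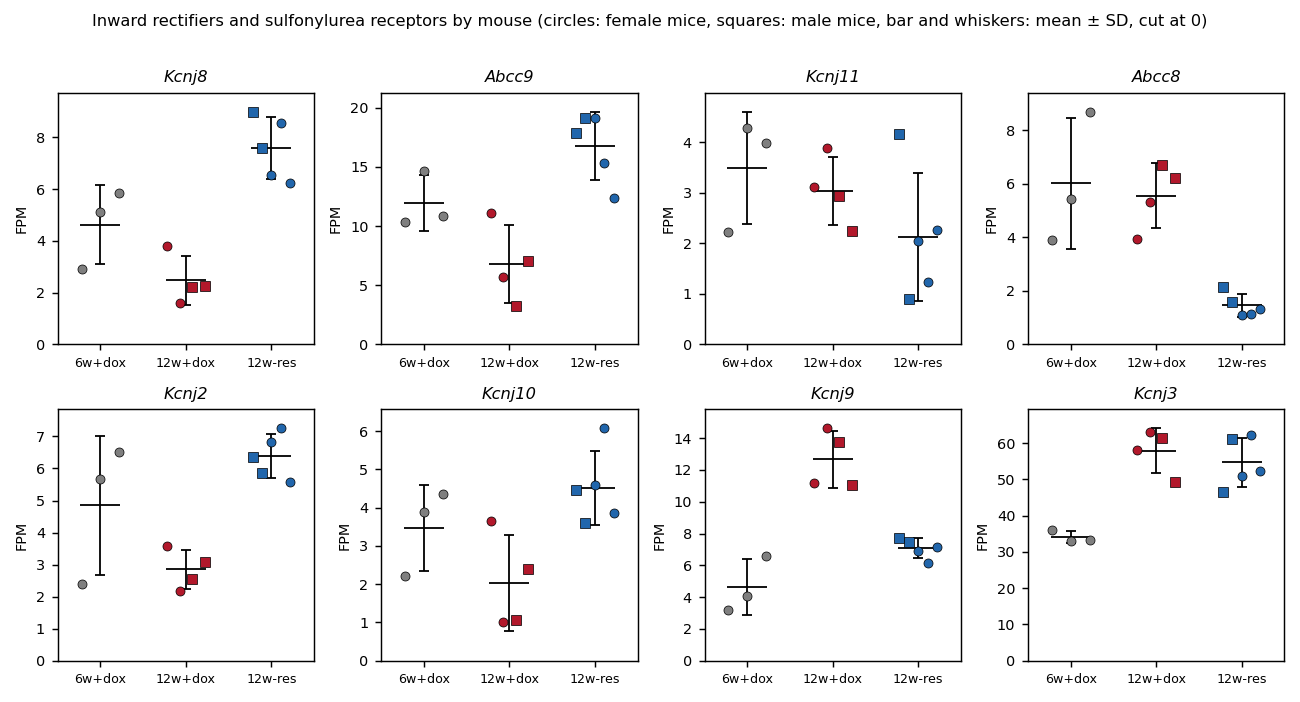
FPM in each long-term mouse for 6 inward rectifiers and the sulfonylurea receptors *Abcc8* and *Abcc9*; circles are females, squares males, and bars show mean ± SD. *Kcnj8* and *Abcc9* are highest in 12w-res, *Abcc8* is lowest there at 1.09 to 2.13 FPM, and *Kcnj9* peaks at 12w+dox.

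Tandem-pore channels carry the background potassium current. In 12w+dox against 6w+dox *Kcnk13* rose and *Kcnk2* fell among 9. *Kcnk10* rose in 12w-res against 12w+dox and none fell, with 1 lower at an unadjusted p under 0.05 by limma and 0 called lower by edgeR and by DESeq2. The family median was 0.73 there. In 12w-res against 6w+dox *Kcnk13* rose and *Kcnk6* fell.

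*Kcnk13*, a halothane-inhibited channel, read 0.233, 0.445 and 0.497 FPM at 6w+dox, 1.81, 2.19, 2.22 and 1.73 at 12w+dox and 1.46, 5.86, 3.69, 4.37 and 4.09 in 12w-res. No mouse of the later groups reached down to 6w+dox, and 4 of the 5 12w-res mice were above all 12w+dox mice. It rose 2.80-fold at 12w+dox (log2 1.49 ± 0.32 SE, adjusted p = 0.0062) and 4.64-fold in 12w-res (log2 2.22 ± 0.31 SE, adjusted p = 0.00010), the largest change of a member against 6w+dox, and both calls were kept wherever the gene was tested.

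*Kcnk6*, of the *Kcnk1* subfamily, read 15.8, 17.1 and 21.3 FPM at 6w+dox, 8.93, 9.12, 10.2 and 12.0 at 12w+dox and 4.78, 5.60, 7.69, 6.38 and 6.74 in 12w-res. The 3 groups did not overlap, with 12w-res lowest. The 2.77-fold fall in 12w-res against 6w+dox (log2 -1.47 ± 0.18 SE, adjusted p = 3.1e-05) was kept in every fit. The differences on either side of 12w+dox, -0.81 (adjusted p = 0.0080) and -0.66 (adjusted p = 0.0060), were not called.

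*Kcnk10*, a mechano- and lipid-gated channel, read 0.466, 0.579 and 0.621 FPM at 6w+dox, 0.314, 0.0291, 0.0616 and 0.0838 at 12w+dox and 0.416, 1.64, 0.865, 1.48 and 1.16 in 12w-res. The 12w+dox mice were the lowest 4, and the rise in 12w-res was 2.52-fold (log2 1.33, adjusted p = 0.0011). *Kcnk2*, of the same subfamily, read 51.3, 67.8 and 44.5 FPM at 6w+dox, 50.9, 5.30, 8.69 and 9.49 at 12w+dox and 40.3, 14.95, 26.5, 19.2 and 24.6 in 12w-res. Replicate 1 of 12w+dox stood with the 6w+dox mice and the other 3 at a small part of that level. The fall was log2 -2.07 (adjusted p = 0.016), or -2.74 (adjusted p = 0.00017) without that mouse. It was lost by edgeR (adjusted p = 0.072), by DESeq2 (adjusted p = 0.085) and without 6w+dox replicate 2 (adjusted p = 0.073).

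That same 12w+dox mouse read 4940 FPM of the lactotroph hormone gene *Prl*, where the other 3 read 213.5 to 331.9, and 7478 FPM of the somatotroph hormone gene *Gh*, where they read 930.3 to 2317. The part of these cells in the *Kcnk2* value was not tested. *Kcnk10* and *Kcnd3* were highest in the same mouse within their group, at 0.314 and 11.5 FPM.

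Proteins that work with these channels but carry other names were listed as well. Of 15 partners *Abcc9* and the secreted ligand *Lgi1* (log2 1.16, adjusted p = 0.0016) rose in 12w-res against 12w+dox, and *Abcc8* and the BK gamma subunit *Lrrc55* (-1.37, adjusted p = 0.013) fell. *Lgi1* had fallen at 12w+dox against 6w+dox (-1.04, adjusted p = 0.014), a call that ended without 12w+dox replicate 1 or 3 or 6w+dox replicate 1 or 2 (adjusted p 0.030 to 0.050). In 12w-res against 6w+dox *Abcc8* and the BK gamma subunit *Lrrc38* fell (-1.15, adjusted p = 0.021), the latter not without 6w+dox replicate 2 or 3 (adjusted p 0.062 to 0.070).

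Of 15 potassium pumps and cotransporters 3 fell in 12w-res against 6w+dox, *Atp1b2* among them. This beta subunit of the sodium pump read 155, 175 and 161 FPM at 6w+dox, 106, 129.9, 90.6 and 123 at 12w+dox and 93.7, 66.6, 75.3, 67.7 and 54.3 in 12w-res. All 6w+dox mice were above all other mice, and the fall was log2 -1.21 (adjusted p = 6.6e-05), a call kept in every fit.

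The short-term experiment followed the first days after dox removal, when the GFP reporter fell from 1025 to 1360 FPM at 16w+dox to 9.34 to 15.2 FPM at 5d-dox and *Rb1* stayed between 3.47 and 6.03 FPM in all mice. No potassium channel gene was called by limma in any of the comparisons. Few genes of any kind were called. In 1d-dox against 16w+dox, limma called 0 of 61 members, beside 0.00716% of all 13958 genes higher and 0.0358% lower (0.043% in all). At an unadjusted p under 0.05, 5 of the 61 members were higher and 4 lower, beside 946 and 877 of the 13958 genes. In the 3d-dox males against the 16w+dox males limma called 0 members, beside 0.0788% of all genes higher and 0.0502% lower (0.129% in all). At an unadjusted p under 0.05, 6 members were higher and 8 lower, beside 1109 and 1214 of the 13958 genes. The 5d-dox mice against 16w+dox gave 0 members called, beside 0.086% of all genes higher and 0.107% lower (0.193% in all). At an unadjusted p under 0.05, 5 members were higher and 2 lower, beside 1005 and 884 of the 13958 genes. Within females, 5d-dox against 1d-dox gave 0 members called, beside 0.00716% of all genes in each direction (0.0143% in all). At an unadjusted p under 0.05, 3 members were higher and 2 lower, beside 510 and 373 of the 13958 genes. Groups did not overlap in 6 members at 1d-dox (9.84%, beside 11.2% of all genes), in 11 at 3d-dox (18.03%, beside 21.6%), in 10 at 5d-dox (16.4%, beside 19.3%) and in 8 between 5d-dox and 1d-dox (13.1%, beside 7.8%). edgeR called 0 members in each comparison. DESeq2 called 2 members lower at 1d-dox (*Kcnc4* and *Kcnk2*) and 2 lower at 5d-dox (*Kcng4* and *Kcnk5*), and 0 in the others.

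These DESeq2 calls rested on few reads or few mice. *Kcnk2* read 2.15, 31.0 and 1.89 FPM at 16w+dox, 1.31, 2.17, 1.30 and 1.73 at 1d-dox, 3.95, 2.77 and 7.35 after 3 days off dox and 2.33, 2.05 and 2.11 at 5d-dox. Replicate 2 of 16w+dox stood alone. The other 16w+dox mice overlapped the females of both later groups and lay below the 3 males taken after 3 days. Its log2 fold change at 1d-dox was -1.48 by limma (adjusted p = 0.35) and -2.84 by DESeq2 (adjusted p = 0.037), and -0.26 by limma without that mouse. *Kcnc4*, an A-type relative of *Kcnc1*, read 0.225, 1.90 and 0.306 FPM at 16w+dox, 0.0249 to 0.180 at 1d-dox, 0.612 to 1.48 at 3d-dox and 0.0561 to 0.281 at 5d-dox. The silent subunit *Kcng4* read 0.0749, 0.722 and 0.0255 FPM at 16w+dox and was at 0 in the 3 5d-dox mice, with 0.102 to 0.556 at 3d-dox.

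In *Kcnc4* and *Kcng4* the high mice were 16w+dox replicate 2 and the 3d-dox mice, all male. The 3 gonadotroph markers (*Lhb*, *Fshb*, *Gnrhr*) summed to 27.2 to 86.3 FPM at 3d-dox, 0.763 to 2.20 in the 1d-dox group and 0.753 to 1.89 in the 5d-dox group. Their sum was 11.6 to 21.3 FPM at 16w+dox, where the markers did not move together. In replicate 2 *Gnrhr* read 18.4 FPM, above the 1.65 and 2.35 of the others, while *Lhb* (1.95 FPM, the others 4.74 and 6.00) and *Fshb* (0.882 FPM, the others 5.22 and 9.57) were lowest in that mouse. *Prl* read 93.5 FPM in it and 7.26 and 12.7 in the others. The part of such cells in these channel values was not tested.

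*Kcnk5*, an alkaline-activated background channel, read 0.399, 0.508 and 0.510 FPM at 16w+dox, 0.258, 0.244, 0.374 and 0.398 at 1d-dox, 0.478, 0.204 and 0.412 after 3 days off dox and 0.196, 0 and 0.0844 at 5d-dox. The 5d-dox mice lay below all mice of the other groups. By limma the log2 change at 5d-dox was -0.72 (adjusted p = 0.080) on 7, 0 and 3 reads. Within females *Kcnk13* gave 0.59 in 5d-dox against 1d-dox (adjusted p = 0.65). In males the member with the smallest adjusted p at 3d-dox was *Kcna2* (-0.49, adjusted p = 0.11).

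**Figure D5:**
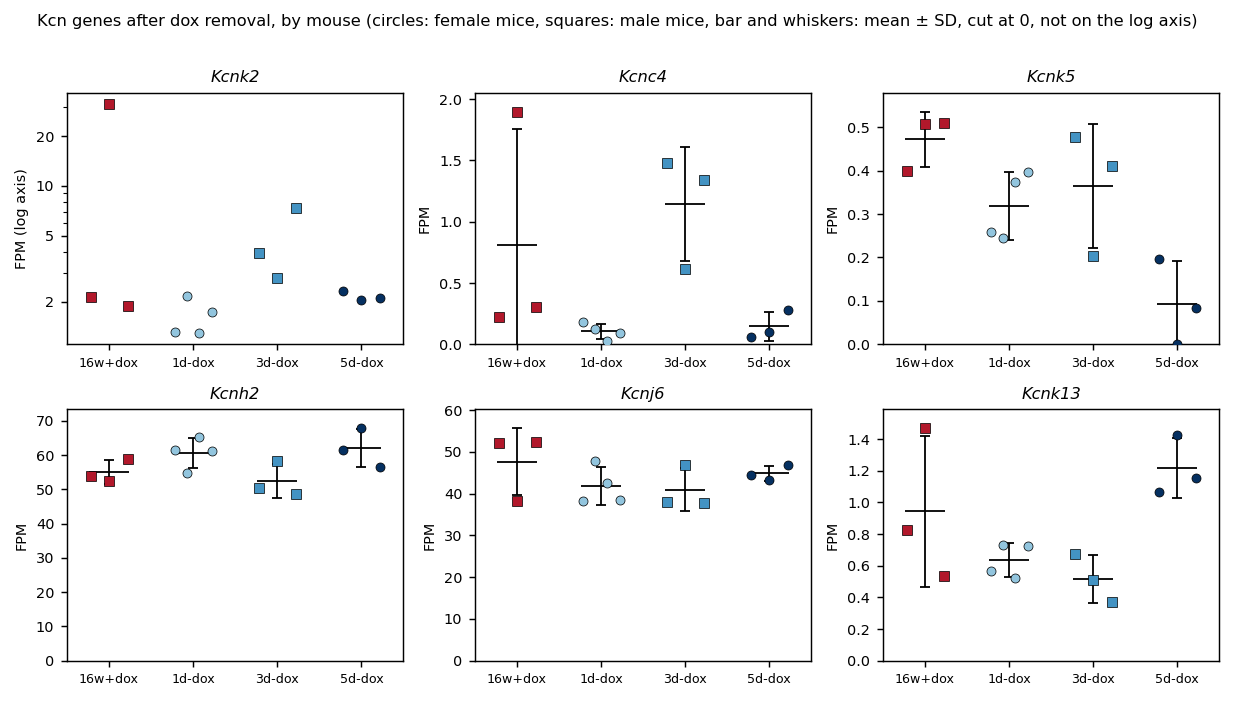
FPM in each short-term mouse for 6 members; circles are females, squares males, bars show mean ± SD cut at 0, and *Kcnk2* is on a log axis without bars. *Kcnk2* is high in 16w+dox replicate 2 alone at 31.0 FPM, and *Kcnh2* and *Kcnj6*, the highest members per kb, overlap between all groups.

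Members called over weeks in the other table were not called here. In the order 16w+dox, then 1, 3 and 5 days off dox, *Kcnn3* averaged 9.66, 11.2, 9.93 and 12.6 FPM, *Kcnj9* 3.54, 3.58, 2.603 and 4.15 FPM, and *Kcnt1* 10.6, 10.3, 11.6 and 10.3 FPM. *Kcnj8* averaged 0.724, 0.518, 0.535 and 0.415 FPM. Pericyte and smooth muscle marker sums ran from 48.4 to 85.0 FPM in the 16w+dox males and from 43.1 to 65.2 in the 3d-dox males. In females they ran from 24.7 to 38.1 FPM at 1d-dox and from 22 to 35.2 at 5d-dox. The antisense RNA *Kcnq1ot1* averaged 99.7 to 122.0 FPM in these rRNA-depleted libraries and 9.37 to 21.1 in the poly(A) libraries, where preparation and experiment cannot be told apart.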

How the data were processed

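Pituitary RNA of 25 sh*Rb* mice was sequenced in paired 150-base runs. Per the labels and the paper's methods, the authors mapped reads to mm10 with STAR, kept RefSeq genes where over 50% of a condition's samples reached 10 reads, and deposited a signal scaled by DESeq2 size factors (FPM). The counting tool and strand setting are not given in the sources used here. Of all values 100% came out as whole reads within 0.1 of a read. Lines that name no gene, 4 in the short-term table with 68.8% to 75.0% of its reads and 2 in the long-term table, were left out. All deposited columns were used.

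The members, families, lists and rule for named genes were chosen with earlier results of these data known. The main test was limma 3.58.1 in R 4.3.3, with trend, fitted to log2(FPM + 0.5) with all groups of a table together and Benjamini-Hochberg adjustment over all genes tested (15315 and 13958). Fold changes are on that scale and understate changes of low genes. A gene was called at adjusted p under 0.05 and absolute log2 fold change over 1. edgeR 4.0.16 and DESeq2 1.42.0 on recovered reads were alternatives, with other scalings, pseudocounts, filters, blocks, sex terms and each mouse left out. Scripts were tested on simulated data. Named are all members called, the 5 highest per kb in each table and a set list (*Abcc8*, *Abcc9*, *Kcnab2*, *Kcnd2*, *Kcnh2*, *Kcnj3*, *Kcnj6*, *Kcnj11*, *Kcnk2*, *Kcnk3*, *Kcnma1*, *Kcnn1* to *Kcnn3*, *Kcnq1ot1* and *Kcnq3*, with others). Values by mouse were due for up to 3 called genes per family and comparison without overlap, and those of other genes were added after their values were seen. Coordinates and promoters came from RefSeq (GRCm38.p6), lengths from the longest GENCODE transcript. Some items are not reported here. Replicates are mice. Intervals of read ratios are exact 95% intervals and cover counting error only.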

Additional observations from a re-analysis of the deposited data

Results flagged for a closer look

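1 value stood apart within its group. *Kcnk2* read 50.9 FPM in 12w+dox replicate 1, where the other 3 12w+dox mice read 5.30 to 9.49 FPM (n = 4), and the gap to the nearest mouse was 0.908 of the range of the group. Among the 87 groups of 4 or 5 mice examined this was the only such value, and chance alone marks about 1 in 20 groups. The same mouse was high in *Prl* and *Gh*. The part of those cells in the *Kcnk2* value was not tested.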

How the results depend on the processing

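All 37 member calls and 13 calls of partners and pumps kept their direction under the alternatives in which they were tested. Of the calls 3 of 13 in 12w+dox against 6w+dox, 1 of 14 in 12w-res against 12w+dox and 6 of 10 in 12w-res against 6w+dox were kept in every alternative. The number of members called higher in 12w+dox against 6w+dox was 8 and became 5 with at least 10 reads required in every sample, 5 with sex as a covariate and 4 in females only. The number called lower was 5 and became 11 with no minimum fold change, 2 with a pseudocount of 1, 3 with 10 reads in every sample, 2 on total reads, 1 with only the groups compared, 2 with sex as a covariate and 1 in females only. In 12w-res against 12w+dox the 8 called higher became 18 with no minimum fold change, 2 with a pseudocount of 1, 5 with 10 reads in every sample and 1 on total reads, and the 6 called lower became 13, 3, 3 and 18 under the same settings and 2 in females only. In 12w-res against 6w+dox the 6 called higher became 17 with no minimum fold change and 3 with 10 reads in every sample, and the 4 called lower became 12 and 2, 11 on total reads and 7 both with sex as a covariate and in females only. DESeq2 called 2 members lower at 1d-dox and 2 at 5d-dox where limma called 0. Except where fewer genes or mice entered a fit, the cause was not tested.

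On leaving out each mouse in turn, the members called higher ranged from 5 to 10 in 12w+dox against 6w+dox, from 6 to 10 in 12w-res against 12w+dox and from 5 to 8 in 12w-res against 6w+dox. Those called lower ranged from 2 to 8, from 3 to 7 and from 3 to 8. Without 12w+dox replicate 4 the first comparison had 5 higher. It had 8 lower without 6w+dox replicate 1 and 2 lower without any 1 of the other mice but 12w+dox replicate 1. Without 12w+dox replicate 2 the 12w-res comparison had 3 lower, and without 12w-res replicate 1 or 6w+dox replicate 1 the last comparison had 8 lower. In the short-term table all these counts were 0. *Kcnk2* at 5d-dox against 16w+dox ranged from log2 -1.78 to 0.0815 and changed sign, from -1.13, without 16w+dox replicate 2 (0.0815, adjusted p = 0.95). Of 50 called values 29 were kept whichever mouse was left out.

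Replicate numbers did not pair the mice, since correlations of same-numbered mice ran from -0.214 to 0.241 over the comparisons. With the replicate number as a block, 6 members were called higher and 3 lower in 12w+dox against 6w+dox, 8 and 6 in 12w-res against 12w+dox and 7 and 4 in 12w-res against 6w+dox. It called 0 in the short-term table. Depth limits members under 1 FPM, 23 in the long-term and 18 in the short-term table, whose fold changes depend on the pseudocount.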
